A study of Gallus gallus with 4 samples.

Results

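RBM24, VSIG1, GTF2A1L, CTLA4, GYPC and AAMDC are 6 genes from outside the crystallin families whose signal was higher in chick neural retina cultures kept with DAPT than in their controls. They were selected on that measured log2 difference between the groups, so the contrast between DAPT and its solvent is a description for them and carries no test here. The array held 10 probes for these 6 genes among 43603 probes in all, and the 6 were among 5382 genes that could be named. There were 3 probes for VSIG1, 2 each for RBM24 and GYPC, and 1 each for GTF2A1L, CTLA4 and AAMDC. All 10 probes passed the filter on dim probes, which a probe can pass through the brighter group alone.

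The cultures were made from neural retina of stage 33 chicken embryos (embryonic day 8) that had been taken apart with trypsin before plating. From day 2 of culture the DAPT group received 10 µM DAPT, an inhibitor of the γ-secretase that releases the active part of the Notch receptor, and the DMSO group the same volume of solvent, until RNA was taken on day 12. No genotype or strain is given in the labels, and they do not say whether the 2 samples of a group had different embryos or platings as their source. P-values therefore measure the spread between 2 samples, a spread that may be technical. Each of the 4 samples was hybridised to a 1-colour Agilent array, and the arrays of replicate 1 lay on one slide and those of replicate 2 on another. Signal is given either as the processed signal, a background-subtracted brightness in scanner units, or as normalised log2 signal, which is log2 of that value minus log2 of the array's 75th percentile. Precision is limited by the small number of arrays.

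The 6 genes are known from different tissues. RBM24 is an RNA-binding protein that controls splicing and mRNA stability in heart and skeletal muscle, and in zebrafish and mouse it also acts in the developing eye, where SOX2 mRNA is one of its targets. VSIG1 is an adhesion protein of the immunoglobulin superfamily known from stomach epithelium and testis in mammals, and GTF2A1L is a germ-cell counterpart of the large subunit of the general transcription factor TFIIA. CTLA4 is the inhibitory receptor of T cells that competes with CD28 for its ligands. GYPC, glycophorin C, anchors the erythrocyte membrane to the spectrin skeleton through protein 4.1. AAMDC is a small protein named for its part in the adipogenesis of mouse cells.

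Limma called 25.5% of 32294 features at a Benjamini-Hochberg adjusted p under 0.05, with 12.4% higher in DAPT and 13.1% lower. Both DAPT arrays lay above both DMSO arrays for 36.9% of the features measured on every array, and for 42.1% of the named genes. With the replicate number as a block, 6858 features were higher in place of 3991. The median log2 difference over all features was 0.061. Across features, the correlation was 0.994 between the DMSO arrays and 0.996 between the DAPT arrays, and for arrays of different groups at 0.962 to 0.966. Of 17 tested markers of the neural retina, 8 fell and 2 rose (median log2 difference -0.30), and all 17 were well above background on both DAPT arrays. Of 17 tested fibroblast markers 16 fell and 0 rose (1 at an unadjusted p under 0.05), with a median of -3.52. Among the 16, 1 gene passed the filter through DMSO alone, where it was higher, and had a value on 1 DMSO array only. Its fall is a description. The summed processed signal of the fibroblast list was 539467 and 604252 in DMSO, with 1 value of DMSO replicate 1 left out, and 128458 and 126363 in DAPT. None of the 18 fibroblast genes on the array was below background on every array. Every difference described here was measured in these same arrays, and the part of fibroblast RNA in it was not tested. In such bulk samples, fewer cells of a type and less RNA per cell cannot be told apart.

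RBM24 was measured well above background in both groups by 2 probes. Its first probe read 1182 and 1340 in DMSO and 60068 and 54341 in DAPT (processed signal, replicates 1 and 2). Its second probe read 450 and 461 in DMSO and 21213 and 17577 in DAPT. Both probes read high in DAPT and low in DMSO, and neither had overlapping groups. In normalised log2 signal the first probe was at -0.30 ± 0.20 in DMSO and 5.30 ± 0.053 in DAPT (SD, n = 2). The difference was 5.60 ± 0.14 (log2, DAPT minus DMSO, ± SE), or 48.5-fold, with 5.78 on slide 1 and 5.42 on slide 2. The second probe differed by 5.50, so the 2 probes of RBM24 agreed to within their SE.

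For VSIG1 the 3 probes spanned the range from measurable to background. In DMSO the first read 23.2 and 24.5, and in DAPT 1708 and 1539. The second read 7.02 and 6.41 in DMSO and 713 and 600 in DAPT, and the third 6.12 and 3.21 in DMSO and 181 and 140 in DAPT. No probe of VSIG1 had overlapping groups, but in DMSO the second was well above background on 1 of 2 arrays and the third on 0 of 2. The first probe was at -6.02 ± 0.13 in DMSO and 0.16 ± 0.057 in DAPT (normalised log2 signal, SD, n = 2), a difference of 6.19 ± 0.12 (6.31 on slide 1, 6.06 on slide 2). The second probe differed by 6.70. For the third, not well above background in DMSO, DAPT was 24.0-fold above a DMSO floor. That floor on an array is the dimmest signal that still counted as well above background, or the probe's signal if that was larger. Brighter probes could fail that flag, so such a fold is no strict bound. The first probe of KCTD14, at -7.06 and -7.01 in DMSO, failed it on 1 of 2 arrays, above the dimmest flagged signals of -7.55 and -7.99.

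GTF2A1L was at -6.51 and -7.09 in DMSO and 0.00070 and -0.098 in DAPT (normalised log2 signal). It was well above background on all 4 arrays and the groups did not overlap, although the scanner's own error estimate was 17.4% and 17.2% of the signal in DMSO against 10.0% in DAPT. The group means were -6.80 ± 0.41 (DMSO) and -0.049 ± 0.070 (DAPT, SD, n = 2). The difference was 6.75 ± 0.22, or 108-fold, with 6.51 on slide 1 and 6.99 on slide 2.

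CTLA4 was well above background on both DAPT arrays and on neither DMSO array. Its probe read 3.13 and 1.26 in DMSO, where the scanner's error estimate was 63.6% and 99.6% of the signal. In DAPT it read 542 and 489, with an error estimate of 10.0%. The groups did not overlap. The fitted log2 difference of 8.11 rests on DMSO values at background and is no bound. Against the DMSO floor described for VSIG1, DAPT was 77.7-fold higher, which is no strict bound either. The measured means were -9.60 ± 0.85 in DMSO and -1.49 ± 0.056 in DAPT (normalised log2 signal, SD, n = 2).

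GYPC and AAMDC differed less. The first GYPC probe was at -4.87 and -4.46 in DMSO and -1.99 and -1.80 in DAPT (normalised log2 signal). The second read 6.29 and 7.47 in DMSO and 55.8 and 46.2 in DAPT (processed signal). The first probe was well above background on all 4 arrays, the second on 1 of 2 DMSO arrays, and the groups overlapped for neither. The first probe differed by 2.77 ± 0.18 on the log2 scale, or 6.83-fold (2.88 on slide 1, 2.67 on slide 2), and the second by 2.99. AAMDC read 1085 and 939 in DMSO and 2791 and 3067 in DAPT, without overlap. Its difference was 1.63 ± 0.12, or 3.10-fold, with 1.48 on slide 1 and 1.79 on slide 2.

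**Figure D1:**
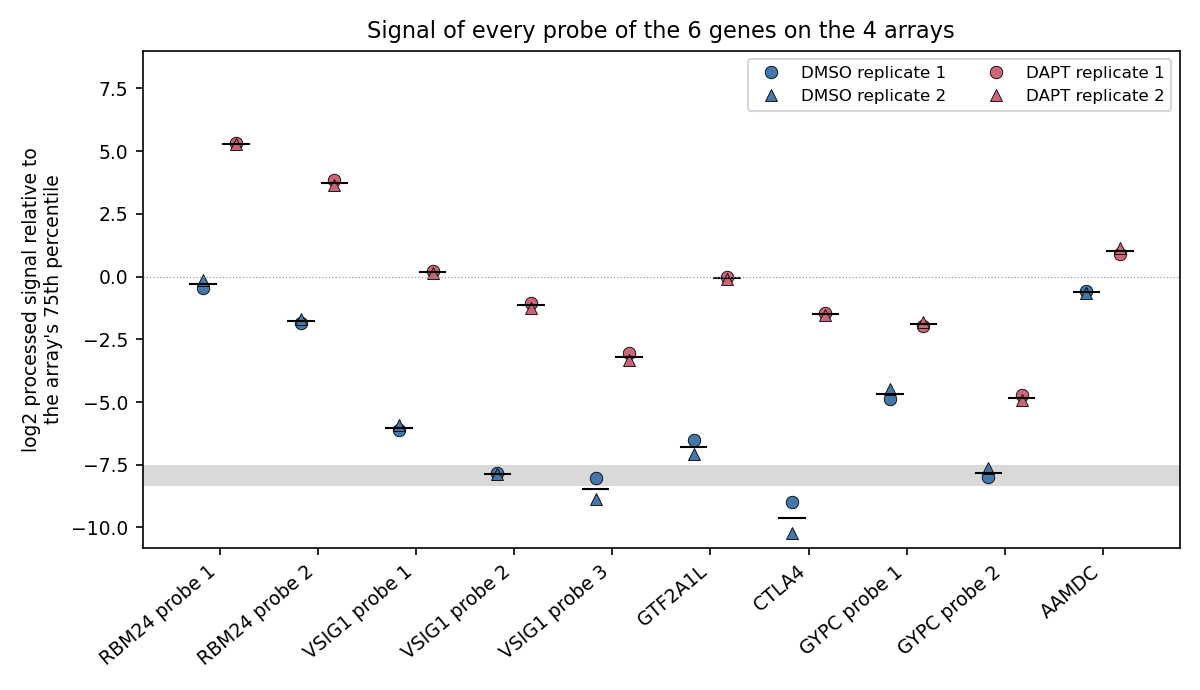
Normalised log2 signal (relative to each array's 75th percentile, vertical axis) of the 10 probes of the 6 genes on the 2 DMSO and 2 DAPT arrays, with circles for replicate 1, triangles for replicate 2 and bars for group means. The grey band spans the dimmest signals still called well above background on the 4 arrays. In DMSO, CTLA4 lies under it and the VSIG1 probes 2 and 3 and GYPC probe 2 within or just under it. For all 10 probes the DAPT points lie above the DMSO points, as they do for 36.9% of all features. The genes were selected on this difference.

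Ranked by log2 difference among 5049 tested genes with a symbol, GTF2A1L stood at place 7, VSIG1 at 10, RBM24 at 12, GYPC at 49 and AAMDC at 147. CTLA4, which was at background in DMSO, was counted in this order by its fitted value and is given no place. These are the values on which the genes were selected, and as a description AAMDC, at 3.10-fold, goes against the name of a strong riser. GTF2A1L lay between ASL (6.83) and BFSP2 (6.60). VSIG1 lay between CALCA (6.40) and CRYBA4 (5.81), and RBM24 between CRYBA4 and CRYBB2 (5.59). These neighbours in rank are BFSP2, a beaded filament gene, β-crystallins and ASL, the gene of δ2-crystallin, whose probes may also read the near-identical ASL1 (δ1-crystallin), apart from CALCA, the gene of calcitonin. GYPC lay between GPC5 (2.80) and CSRP3 (2.74), and AAMDC between PRRG1 (1.63) and PTPRO (1.62).

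The sizes differed in another setting, normexp with an offset of 50 on the median spot signal in place of the processed signal. There RBM24 was at 5.50 and AAMDC at 1.57, GTF2A1L at 4.23, VSIG1 at 4.19, CTLA4 at 3.42 and GYPC at 2.05. In that setting RBM24 stood at place 9, GTF2A1L at 14, VSIG1 at 15, GYPC at 55 and AAMDC at 101.

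**Figure D2:**
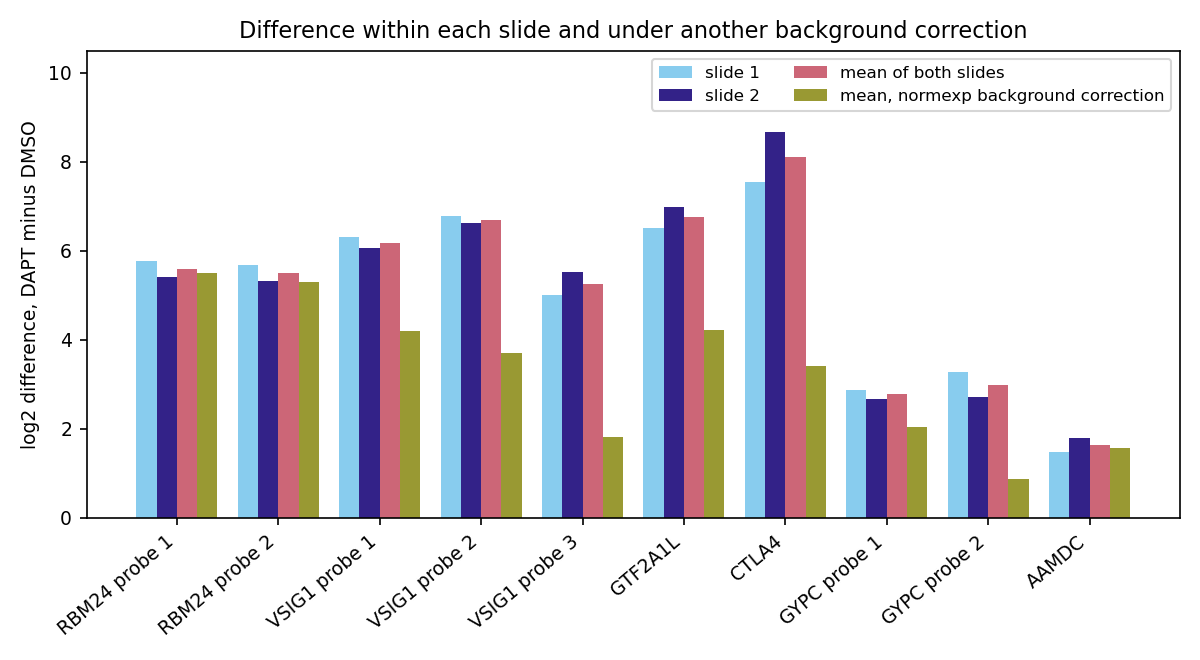
Log2 difference (DAPT minus DMSO, vertical axis) of the 10 probes on slide 1, on slide 2, as the mean of both, and as the mean in the normexp setting. The CTLA4 bars rest on DMSO signals not well above background. The slides differ by less than 0.6 for every probe but CTLA4 (7.55 and 8.68), and the mean and the normexp value are 8.11 and 3.42 for CTLA4, 5.60 and 5.50 for the first RBM24 probe and 1.63 and 1.57 for AAMDC.

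By the smallest root mean square difference between centred log2 values over the 4 arrays, the genes most like RBM24 were PROKR1 (0.048) and XIRP1 (0.15), the latter an actin-binding repeat protein of striated muscle. Those most like GYPC were CSRP3 (0.046), the muscle LIM protein, and GPC5 (0.11), a glypican. BFSP2 (0.21) and CALCA (0.22) were most like VSIG1, and ASL (0.19) and BFSP2 (0.29) most like GTF2A1L. PTPRO (0.023) and SLC24A2 (0.035) were most like AAMDC. No likeness is given for CTLA4, whose DMSO values were at background. With 4 arrays in 2 groups, this likeness is mostly a likeness in the size of the difference. The log2 differences were 5.57 for PROKR1, 5.32 for XIRP1, 2.74 for CSRP3, 2.80 for GPC5, 1.62 for PTPRO and 1.62 for SLC24A2.

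**Figure D3:**
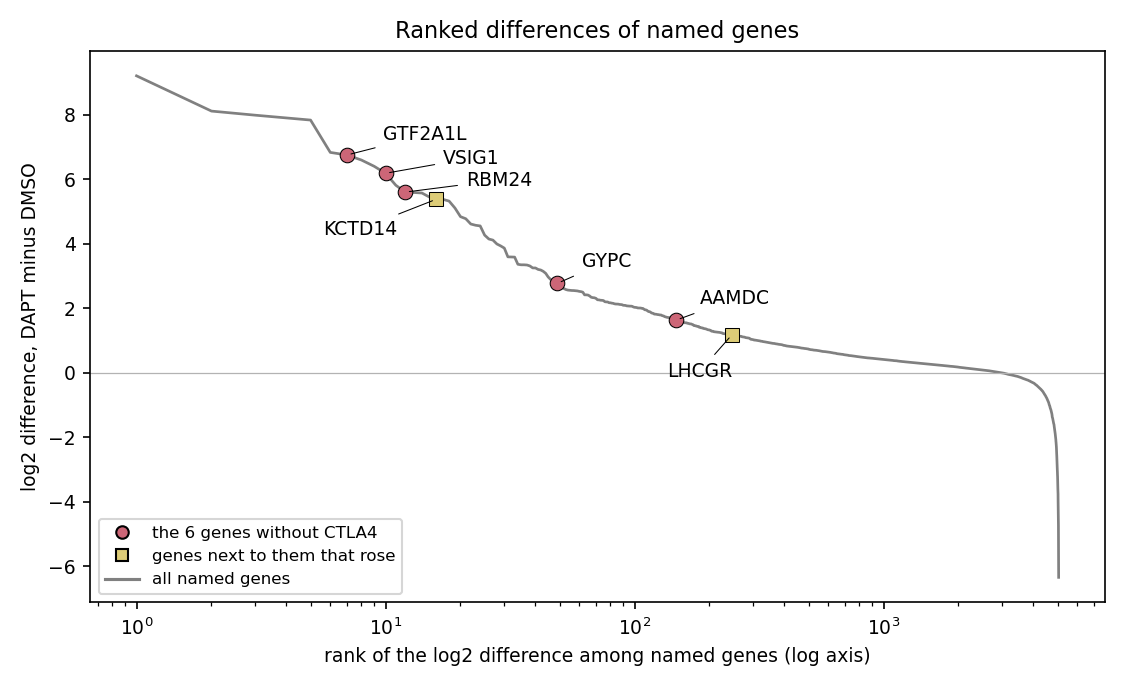
Log2 difference (DAPT minus DMSO, vertical axis) of the 5049 tested genes with a symbol against their rank (log axis). Circles are the 6 genes other than CTLA4, which was at background in DMSO, and squares are 2 neighbours in gene order. GTF2A1L, VSIG1 and RBM24 lie within the first 12 places, GYPC at 49 and AAMDC at 147, and KCTD14 at 16.

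The genes next to the 6 on the chromosome were not chosen for their difference and could be tested, except where the filter was passed through DAPT alone. Of the 24 annotated genes within 2 places of a member, 6 had a named probe and 5 passed the filter. Of these 5, 2 rose and 0 fell (0 also at an unadjusted p under 0.05), against 12.4% and 13.1% of all features. One of the 2, KCTD14, passed the filter through the DAPT group alone, where it was higher, so the count is no more than a description.

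KCTD14, a gene of the BTB-domain KCTD family, lies 2 places from AAMDC with INTS4 between them. It was 5.38 ± 0.12 higher in DAPT (log2, ± SE). Since it passed the filter through DAPT alone, this is a description and no p-value is given. Its first probe was at -7.06 and -7.01 in DMSO and -1.75 and -1.56 in DAPT (normalised log2 signal). The groups did not overlap. The probe was well above background on 1 of 2 DMSO arrays, so it had no value under the filter on all 4 arrays. The difference was 5.31 on slide 1 and 5.45 on slide 2, and 2.81 with normexp. The second probe of KCTD14 was well above background on 0 of 2 DMSO arrays, and its DAPT mean was 26.1-fold above the DMSO floor. KCTD14 stood at place 16 in rank, ahead of AAMDC at 147. INTS4 and RSF1, the genes on either side of AAMDC, had no named probe.

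LHCGR, the receptor of luteinizing hormone, lies next to GTF2A1L and rose by 1.18 ± 0.11 (adjusted p = 0.00433). It read 494 and 465 in DMSO and 998 and 1029 in DAPT, without overlap, and its 3 probes lay between 1.01 and 1.18. For the other side of GTF2A1L, STON1 had no named probe. CD28, which lies beside CTLA4, was at -0.072 ± 0.13 (adjusted p = 0.741), from 0.10 on slide 1 and -0.25 on slide 2, with 0.020 under normexp and 0.035 without DAPT replicate 2. ICOS, on the other side of CTLA4, read between 1.74 and 7.12 on the 4 arrays, was well above background on 1 of them, and was not tested. ATG4A and PSMD10, next to VSIG1, were at -0.18 ± 0.11 and 0.18 ± 0.10 (adjusted p = 0.295 and 0.270).

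Neighbours were also counted among protein-coding genes alone, a choice made after seeing the data. Of 24 positions 10 were tested, with 2 higher and 1 lower, against 12.4% and 13.1% of all features. KCTD14 is among the 2 that were higher, so this count too is a description. The gene that fell was FSHR, the receptor of follicle-stimulating hormone, 2 protein-coding genes from GTF2A1L, at -1.01 ± 0.16 (adjusted p = 0.0168). Its call was lost without DAPT replicate 1 (adjusted p = 0.0854) and without DAPT replicate 2 (adjusted p = 0.0637). EHD3, on the far side of GTF2A1L, was at -0.56 ± 0.14 (adjusted p = 0.0530). It was called lower in 6 alternatives, with normexp, quantile normalization, the filter on all 4 arrays, the mean of probes, the trended prior and the replicate block (adjusted p = 0.0302, 0.0362, 0.0480, 0.0354, 0.0224 and 0.0368). BIN1, CNTNAP5 and MRAS, around GYPC, were at 0.17 ± 0.19, -0.48 ± 0.18 and -0.066 ± 0.18 (adjusted p = 0.566, 0.129 and 0.836). None of the 4 nearest protein-coding genes of RBM24 had a named probe.

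**Figure D4:**
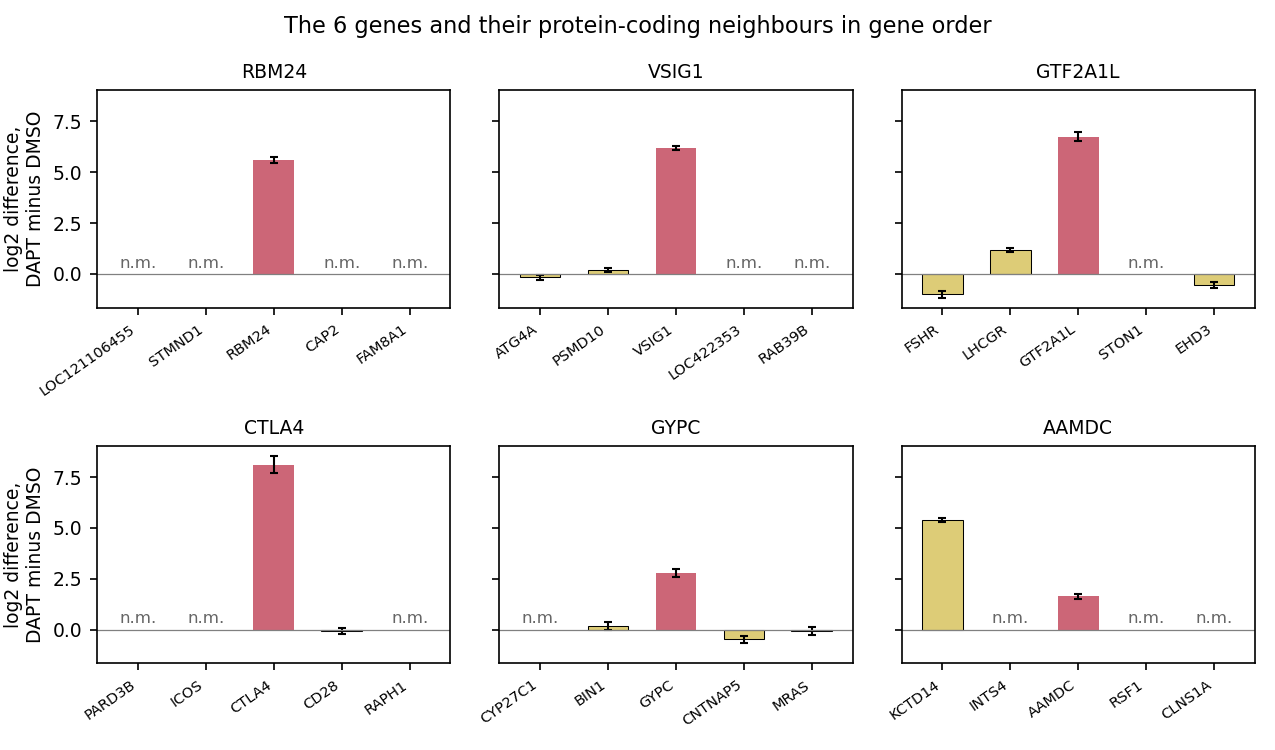
Log2 difference (DAPT minus DMSO, vertical axis) of each of the 6 genes (red) and of the 2 protein-coding genes on either side in gene order (yellow), with error bars for the SE of the fit (2 arrays per group) and n.m. where no named probe passed the filter. KCTD14, 2 places from AAMDC, is at 5.38, above AAMDC itself at 1.63, and LHCGR, beside GTF2A1L, is at 1.18.

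For RBM24, the lists held other RNA-binding regulators of splicing and mRNA in muscle and lens, and markers of muscle. Of 12 tested RNA-binding regulators 3 rose and 2 fell, against 12.4% and 13.1% of all features. Their median was 0.20. CPEB1, a regulator of polyadenylation and translation, rose by 2.50 ± 0.16 (adjusted p = 0.00212), although its other probe was at 0.76. CELF1, which is needed for lens fibre formation in mouse and zebrafish, rose by 1.50 ± 0.11 (adjusted p = 0.00262), with its 5 probes between 1.24 and 1.51. CELF1 was at 2.52 and 2.57 in DMSO and 4.00 and 4.10 in DAPT (normalised log2 signal), without overlap. STAU1, a double-stranded RNA-binding protein, rose by 0.53 ± 0.10. RBPMS2, an RNA-binding protein of retinal ganglion cells and smooth muscle, fell by 2.27 ± 0.10 on the log2 scale and the splicing regulator MBNL2 fell by 0.62 ± 0.11. The calls of STAU1 and MBNL2 were lost with any 1 array left out (adjusted p = 0.0587 to 0.223), which left 1 lower in the list, and that of STAU1 also with quantile normalization (adjusted p = 0.0529). SOX2, the RBM24 target in the eye of other species, was at 0.20 and did not pass (adjusted p = 0.403).

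Muscle markers went both ways, with 4 of 21 tested members higher and 6 lower (median -0.16), against 12.4% and 13.1% of all features. TNNT2, the cardiac troponin T, rose by 3.93 ± 0.17 (adjusted p = 0.00123). It was at -7.27 and -6.88 in DMSO and -3.22 and -3.06 in DAPT (normalised log2 signal), so the groups did not overlap, and its 3 probes lay between 3.86 and 4.22. The size of the TNNT2 rise rests on dim DMSO signals of 10.4 and 12.7 (processed signal), although both were well above background. MYL2, a ventricular and slow-muscle myosin light chain, rose by 1.55 ± 0.12 and the cardiac actin ACTC1 by 0.82 ± 0.10, with its other probe at 0.36. TNNT3, the fast skeletal troponin T, fell by 2.81 ± 0.17 on the log2 scale, with its 4 probes between -3.12 and -1.22, the myosin light chain MYL1 fell by 2.20 ± 0.37 and the myosin heavy chain MYH15 fell by 1.90 ± 0.20. MYF5, NKX2-5 and LMOD2 were below background on every array. MYOD1 and MYOG, factors of the skeletal muscle lineage, were at -0.65 ± 0.42 and 0.22 ± 0.23 and did not pass. The summed processed signal of the list came to 86258 and 108718 (DMSO) and 43041 and 44282 (DAPT). A few bright genes weigh most in this sum, MYH15 among them at 31389 and 40695 (DMSO) and 8690 and 9232 (DAPT). Without DAPT replicate 1 or DAPT replicate 2 the list held 2 higher and the call of ACTC1 was lost (adjusted p = 0.0658 and 0.0796), and without DMSO replicate 1 that of MYL1 was lost (adjusted p = 0.0666).

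For VSIG1, 2 of 24 listed junction adhesion genes of the immunoglobulin superfamily were tested, F11R and JAM2, at -0.15 and -0.54. In limma 0 rose and 0 fell (0 and 1 at an unadjusted p under 0.05), and the replicate block gave 1 lower. Of 9 tested stomach and gut markers 1 rose and 1 fell (median 0.19), against 12.4% and 13.1% of all features. EPCAM, an adhesion molecule of epithelia, rose by 1.00 ± 0.17 (adjusted p = 0.0188) and FOXA2, a factor of endoderm, fell by 0.88 ± 0.21 (adjusted p = 0.0488). The call of EPCAM was lost without either DAPT array (adjusted p = 0.0637 and 0.0939) and with normexp (adjusted p = 0.0589). That of FOXA2 was lost without either DMSO array and without DAPT replicate 2 (adjusted p = 0.0965, 0.145 and 0.159), with normexp (0.322), without the filter (0.0750) and with the trended prior (0.0646). With the replicate block 3 members were higher. ATP4B, CDH17 and CDX2, of acid-secreting stomach cells and intestine, were below background on every array, and the pepsinogen genes PGC and PGA5 were at -0.013 and 0.19. Summed over the list, the DMSO arrays gave a processed signal of 3065 and 2644, and the DAPT arrays 3112 and 2591.

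For GTF2A1L, 1 of 15 tested general transcription factors rose and 1 fell (median 0.047), against 12.4% and 13.1% of all features. GTF2A1 and GTF2A2, the ordinary subunits of TFIIA, were at 0.22 and 0.091 and did not pass. GTF2H1, a subunit of TFIIH, rose by 0.42 ± 0.099 (adjusted p = 0.0438) and TBPL2, a TBP-related factor of oocytes, fell by 0.76 ± 0.11 (adjusted p = 0.0143). The call of GTF2H1 was lost with any 1 array left out (adjusted p = 0.104 to 0.289), with normexp (0.0540), without the filter (0.0688) and with the mean of probes (0.0797), and that of TBPL2 without either DAPT array (adjusted p = 0.109 and 0.0746), where the list held 0 in each direction. TBPL2 was at an adjusted p of 0.620 with normexp and 0.0870 with the trended prior, and the replicate block gave 2 lower. Of 4 tested germ cell markers 0 rose (0 at an unadjusted p under 0.05) and 1 fell, against the same shares of all features. The 1 was KIT, a receptor that germ cells share with other lineages, which fell by 1.09 ± 0.27 (adjusted p = 0.0496). That call was lost without DMSO replicate 1 and without either DAPT array (adjusted p = 0.0503, 0.117 and 0.165), with normexp (0.10) and without the filter (0.0760), and the replicate block gave 2 lower. DDX4 and DAZL, which define germ cells, were below background on every array. Summed over the list, the processed signal came to 613 and 423 (DMSO) and 487 and 347 (DAPT).

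For CTLA4, CD28 and the ligand ICOSLG were the tested members of its receptor family and ligands, and 0 rose and 0 fell (0 and 0 at an unadjusted p under 0.05). CD86, a ligand of CTLA4, was below background on every array. Of 11 tested T cell and leukocyte markers 2 rose and 2 fell (median 0.16), against 12.4% and 13.1% of all features. CD74, the invariant chain of antigen-presenting cells, rose by 1.19 ± 0.11 (adjusted p = 0.00486) and CD3D by 0.78 ± 0.12 (adjusted p = 0.0170). CD3E fell by 1.92 ± 0.17 (adjusted p = 0.00425), with its other probe at -0.43, and CD247 fell by 1.15 ± 0.28 (adjusted p = 0.0464), so that 3 chains of the T cell receptor complex did not move together. The calls of CD3D and CD247 were lost without either DAPT array (adjusted p = 0.0992 to 0.151), which left 1 in each direction. That of CD247 was also lost without the filter (0.0718) and with the mean of probes (0.0669), and the replicate block gave 4 higher. CCR7, GZMA, IL7R and SPI1 were below background on every array, and PTPRC, the common leukocyte antigen, was at -0.048 (adjusted p = 0.911). The summed signal of the list came to 4371 and 3646 (DMSO) and 6074 and 6246 (DAPT). Most of that was CD74 alone, at 2360 and 2139 (DMSO) and 4632 and 4928 (DAPT), so the sum does not describe the other members. The part of leukocyte RNA in the CTLA4 difference was not tested.

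For GYPC, erythroid markers and the genes of the membrane skeleton to which it binds were counted. Of 12 tested erythroid markers 3 rose and 0 fell (1 at an unadjusted p under 0.05), against 12.4% and 13.1% of all features. Their median was 0.35. LMO2, a transcriptional adaptor of blood and endothelial cells, rose by 2.54 ± 0.13 (adjusted p = 0.00145), carbonic anhydrase CA2 by 1.20 ± 0.20 and the transferrin receptor TFRC by 0.73 ± 0.13. LMO2 was at -2.15 and -2.26 in DMSO and 0.24 and 0.44 in DAPT (normalised log2 signal), without overlap. The globin genes HBA1, HBAD, HBBA, HBBR and HBE were between -0.37 and 0.46 and did not pass, and RHAG and HBE1 were below background on every array. The list summed to a processed signal of 71813 and 47382 (DMSO) and 122104 and 127787 (DAPT), mostly that of CA2, and the part of erythroid RNA in the GYPC difference was not tested. The calls of CA2 and TFRC were lost without either DAPT array (adjusted p = 0.0596 to 0.128), which left 1 higher, and that of TFRC also without DMSO replicate 1 (adjusted p = 0.0536) and with normexp (adjusted p = 0.0519). The replicate block gave 2 lower.

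Of 10 tested membrane skeleton genes 3 rose and 1 fell (median 0.25), against 12.4% and 13.1% of all features. EPB41, the protein 4.1 that binds GYPC in erythrocytes, rose by 1.32 ± 0.12 (adjusted p = 0.00485). EPB41 was at -2.67 and -2.89 in DMSO and -1.48 and -1.45 in DAPT (normalised log2 signal), so the groups did not overlap, and its 3 probes lay between 0.97 and 1.32. The spectrin genes SPTBN1 and SPTAN1 rose by 1.94 ± 0.11 (adjusted p = 0.00188) and 0.96 ± 0.12 (adjusted p = 0.00815). MPP1, another partner in the complex of GYPC with protein 4.1, was at 0.53 and did not pass (adjusted p = 0.121). The tropomodulin TMOD3 fell by 0.51 ± 0.11, a call lost with any 1 array left out (adjusted p = 0.0672 to 0.242), with normexp (0.0901), without the filter (0.0557) and with the mean of probes (0.0571). Without DAPT replicate 2 the call of SPTAN1 was lost (adjusted p = 0.0625) and 2 were higher, and the replicate block gave 5 higher.

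For AAMDC, 3 of 15 tested adipogenesis and lipid genes rose and 2 fell (median 0.010), against 12.4% and 13.1% of all features. The enzymes of fatty acid synthesis ACACA and FASN rose by 0.90 ± 0.11 and 0.72 ± 0.11, and RABGAP1L, a GTPase-activating protein reported as a partner of AAMDC in human cells, by 0.73 ± 0.12 (adjusted p = 0.00859, 0.0143 and 0.0186). LPL, the lipoprotein lipase, fell by 1.94 ± 0.18 on the log2 scale and the early adipocyte factor EBF1 fell by 1.58 ± 0.15 (adjusted p = 0.00454 and 0.00488). The markers of fat cells ADIPOQ and PLIN1 were at -0.54 and 0.058 and did not pass. Without either DAPT array 0 were higher (adjusted p of the 3 genes = 0.0634 to 0.126), RABGAP1L was also lost without DMSO replicate 1 (adjusted p = 0.0516), and the replicate block gave 5 higher.

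Of 28 tested lens fibre and lens factor genes 23 rose and 1 fell, against 12.4% and 13.1% of all features. On both DMSO arrays 27 of the 28 were well above background. The other passed the filter through DAPT alone, where it was higher, and is counted among the 23, so this count is a description. The list's median was 2.93, from 2.70 on slide 1 and 3.16 on slide 2. This list was chosen with the rise of lens genes in these arrays known, and its count is no independent evidence of that rise. BFSP1 rose by 9.21 ± 0.27 and CRYBB1 by 7.99 ± 0.19. Without DAPT replicate 1 or DAPT replicate 2 the list held 18 higher. The summed processed signal of the list came to 87055 and 74994 (DMSO) and 1075852 and 1084550 (DAPT).

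**Figure D5:**
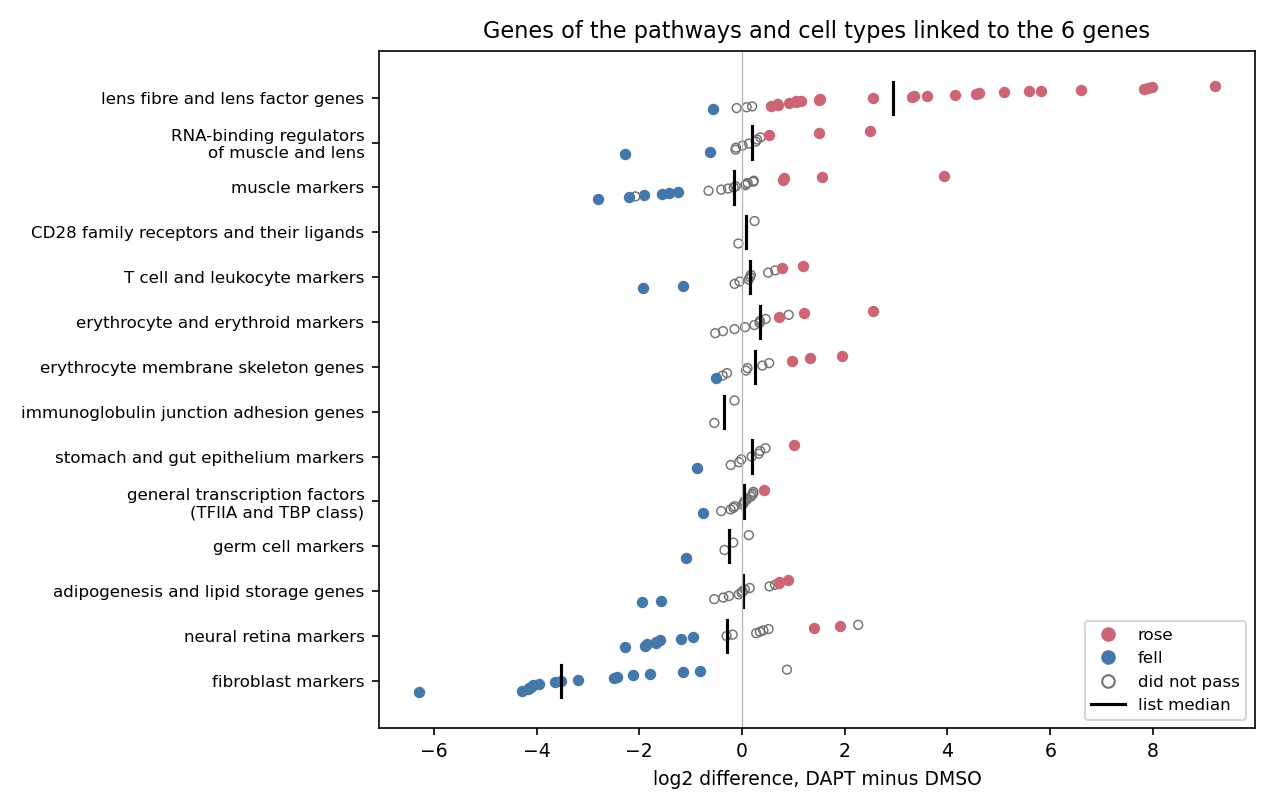
Log2 difference (DAPT minus DMSO, horizontal axis) of every tested gene of 14 lists, with filled points for genes past the threshold (red higher, blue lower), open points for the others and a black bar for the list's median. Lens genes lie to the right (median 2.93) and fibroblast markers to the left (median -3.52). Of 17 neural retina markers 8 are lower and 2 higher (median -0.30), against 13.1% and 12.4% of all features. The medians of the other lists lie between -0.34 and 0.35. The muscle list holds TNNT2 at 3.93 and TNNT3 at -2.81.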

How the data were processed

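RNA of the 4 samples was hybridised to 1-colour Agilent arrays read with Feature Extraction 11.5.1.1, per the file headers. The deposited values are the processed signal, an intensity after the scanner software's background subtraction, and a value table that equals it times 1 factor per array (1.41 to 1.51). From the deposited intensities, log2 processed signal minus log2 of each array's 75th percentile was computed here, and its scale is relative to each array. Control and outlier spots were left out, and 85.7% to 89.3% of spots were well above background. Depth has no equivalent here, and 2 arrays per group limit the precision.

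The array's accessions named 11935 of 43603 probes through a RefSeq gene table of another build, which was used for names and gene order only, so no coordinates are given. The probe with the highest mean stood for a gene. Features well above background on both arrays of a group were fitted with limma 3.58.1 (R 4.3.3, lmFit and eBayes, Benjamini-Hochberg over 32294 features, threshold 0.05). The 6 genes and the 14 lists were chosen with earlier results of these data known, and no list was tested as a set. List genes were matched by current symbol alone, a rule set after older synonyms were seen to match other genes. Genes named were the 6, their neighbours in gene order and in rank, the 2 most alike and up to 3 of each list in each direction with the largest change, while SOX2, MYOD1, MYOG, PTPRC, MPP1, the globins and others without a call were chosen after their values were seen. Same-numbered arrays share a slide, per the file headers, but no label pairs the samples. Alternatives were normexp (offset 50, on the median signal), quantile and median scaling, the deposited table, other filters, the mean of probes, a trended prior, the replicate block and each array left out. The values of 1 gene of the lens list are not reported here.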

Additional observations from a re-analysis of the deposited data

How the results depend on the processing

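For the 6 genes, 72 of the alternative values moved by less than the spread between replicates, 5 moved more and 0 changed sign. Much of this tally was fixed in advance, so it is no evidence of stability. The trended prior, the replicate block and the filters leave a gene's log2 difference as it was. Leaving out 1 of 2 arrays moves a group mean by less than the SD of those arrays. The 5 that moved more were normexp for CTLA4 (3.42), GTF2A1L (4.23), VSIG1 (4.19) and GYPC (2.05) and the mean of probes for VSIG1 (6.05). The cause was not tested. Leaving out 1 array gave 5.46 to 5.74 for RBM24, 6.10 to 6.27 for VSIG1, 6.46 to 7.04 for GTF2A1L, 7.51 to 8.72 for CTLA4, 2.57 to 2.97 for GYPC and 1.53 to 1.73 for AAMDC. Of all features, 1346 to 3079 were higher and 2034 to 3360 lower with 1 array left out, the lone array being assumed to vary like the other group. The deviations of same-numbered arrays correlated at 0.583 over 2 pairs, and the replicate block gave 12864 calls in place of 8225, of which 8224 were shared. With that replicate block 6858 features were higher. Among the lists it gave 4 T cell, 5 membrane skeleton, 3 stomach, 5 adipogenesis, 4 retina and 1 fibroblast genes higher, and 2 erythroid, 1 junction, 2 general transcription factor and 2 germ cell genes lower.

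With 1 array left out, list counts of higher genes ranged over 2 to 4 for muscle, 1 to 2 for T cells, 1 to 3 for erythroid, 2 to 4 for membrane skeleton, 0 to 1 for stomach, 0 to 0 for general transcription factors, 0 to 3 for adipogenesis, 1 to 4 for retina and 0 to 1 for fibroblast genes. Counts of lower genes ranged over 0 to 0 for lens, 1 to 1 for RNA-binding, 1 to 2 for T cells, 0 to 0 for membrane skeleton, 0 to 1 for stomach, 0 to 1 for general transcription factors and 0 to 1 for germ cells. Under normexp the counts became 0 lower for membrane skeleton, 1 lower for junction, 0 higher and 0 lower for stomach and for general transcription factors, 0 lower for germ cells and 1 higher for fibroblasts. Without the filter 1 T cell gene was lower, and 0 were lower for membrane skeleton, stomach and germ cells and 0 higher for general transcription factors. With the mean of probes, 1 T cell, 0 membrane skeleton, 2 stomach and 2 germ cell genes were lower and 0 general transcription factors higher. The trended prior gave 2 membrane skeleton, 1 junction and 0 stomach genes lower and 1 fibroblast gene higher, quantile normalization 1 erythroid gene lower, and the filter on all 4 arrays 1 junction gene lower. Among named genes, 606 values kept direction and call, 72 lost the call, 6 gained it and 4 changed sign. CD28 was at 0.020 under normexp, and BIN1 and MRAS changed sign without DMSO replicate 1. With 1 array left out CD28 ranged from -0.18 to 0.035, BIN1 from -0.053 to 0.40 and MRAS from -0.29 to 0.16. The causes were not tested. The call of LHCGR held in every alternative that gave it a value.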
